A study of Mus musculus with 6 samples.

Results

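The mitochondrial genome of the mouse is a small circle of DNA with 37 genes, and all 37 of them were found among the 55401 genes of the deposited count table by symbols that start with mt-. They comprised 13 protein genes, 2 rRNA genes and 22 tRNA genes. Per the labels, RNA had been taken from glomeruli, the filtering units of the kidney. The mice were in 2 groups labelled Control and DKD (diabetic kidney disease), with 3 libraries in each. The labels give these words as the genotype and name no strain, age, sex or means of inducing the disease, and they do not say that each library came from its own animal, so p-values measure the spread between libraries. RNA was purified on oligo(dT) beads in 2 rounds before the libraries were made.

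The circle encodes core subunits of the respiratory chain and ATP synthase, and the rRNAs and tRNAs with which mitochondria translate them. Both of its strands are transcribed into long precursors. The precursor named after the heavy strand carries both rRNAs, most tRNAs and every protein transcript except mt-Nd6, which the light-strand precursor carries with the other tRNAs. In most places a tRNA lies between longer genes and is excised at both ends, which sets the others free. In mammals most mitochondrial mRNAs and both rRNAs end in short tails of adenosines, while mature tRNAs end in CCA. The tubules of the kidney are rich in mitochondria, whereas the cells of the glomerulus hold fewer.

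The libraries held between 71154026 and 83576494 counts, so that sampling noise was small for protein genes and rRNAs and limiting for several tRNAs. Across genes, the log2 levels of Control replicate 3 correlated at 0.977 and 0.976 with the other Control libraries, which correlated at 0.993 with each other. Levels are CPM, which corrects counts for library size and composition by TMM, given as mean ± SD with n = 3 per group. Fold changes are DKD over Control on the log2 scale ± their standard error from edgeR's quasi-likelihood test, with p-values adjusted by Benjamini-Hochberg over the 19717 genes tested and 0.05 as the threshold. Of all genes tested, 0.725% rose in DKD and 0.431% fell. All 37 mitochondrial genes passed the filter on low counts, which asks for 3 libraries at a minimum count of 10, scaled to library size. mt-Tf and mt-Tv had no Control library at that minimum. mt-Tk (0, 3 and 28 Control counts) and mt-Ts2 (3, 6 and 19) had fewer than 3. So did mt-Tl2 (9, 8 and 17) and mt-Th (12, 7 and 19). All of these tRNAs passed only through the DKD libraries, where they were high. Nothing is supported with their differences or with counts or medians over tRNAs that include them.

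Markers of the proximal tubule stood at 27849, 31222 and 59331 summed CPM in Control replicates 1 to 3 and at 25014, 26736 and 15286 in DKD replicates 1 to 3. All 18 of these markers had a fold change below 0, 2 of them fell (0.431% of all genes did), and none was at 0 counts in all libraries. Of the 18, 9 were lower in every DKD library than in every Control library, against 15.2% of all genes. The fold changes of the mitochondrial genes were above 0. Of the 10 markers of the thick limb and distal tubule, 4 were above 0 and 6 below. The 12 podocyte markers summed to 727 to 958 CPM (Control) and 595 to 661 CPM (DKD). Of these, 7 of 12 did not overlap, lower in DKD, against 15.2% of all genes. The 10 endothelial markers summed to 442 to 665 CPM (Control) and 308 to 503 CPM (DKD). For the 10 markers of the thick limb and distal tubule these ranges were 5695 to 6571 CPM and 4153 to 6824 CPM. They were 402 to 556 CPM and 433 to 496 CPM for the 10 mesangial and smooth muscle markers, and 274 to 761 CPM and 398 to 827 CPM for the 10 leukocyte markers. Fold changes were below 0 for 9 endothelial, 8 mesangial and smooth muscle and 3 leukocyte markers, and above 0 for 1, 2 and 7. Without overlap, 3 endothelial and 1 mesangial marker were lower in DKD (15.2% of all genes) and 2 leukocyte markers higher (15.5%). The mesangial marker Agtr1a fell (−1.07 ± 0.16, edgeR adjusted p 0.0360). No marker of these lists was at 0 in all libraries. The summed proximal tubule markers exceeded the summed podocyte markers in every library, so the material labelled as glomeruli held tubule RNA. The mitochondrial levels are thus those of a mixture of cells, not of glomerular cells alone. In bulk RNA, fewer cells of a type and less RNA per cell cannot be told apart. The part of tissue composition in the mitochondrial differences was not tested.

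Each of the 3 classes of mitochondrial genes took a larger share of the counts in every DKD library than in any Control library. The protein genes held 11.7%, 10.5% and 12.1% of all counts in Control replicates 1 to 3 and 18.2%, 14.9% and 17.7% in DKD replicates 1 to 3. The rRNA genes held 0.0836%, 0.108% and 0.0876% in Control and 0.489%, 0.313% and 0.620% in DKD. The tRNA genes held 0.0241%, 0.0197% and 0.0250% in Control and 0.0651%, 0.0411% and 0.0793% in DKD. The smallest DKD value was that of replicate 2 each time. The exact permutation test (two-sided) gave p = 0.1 for each class, the smallest that 3 against 3 allows.

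**Figure D1:**
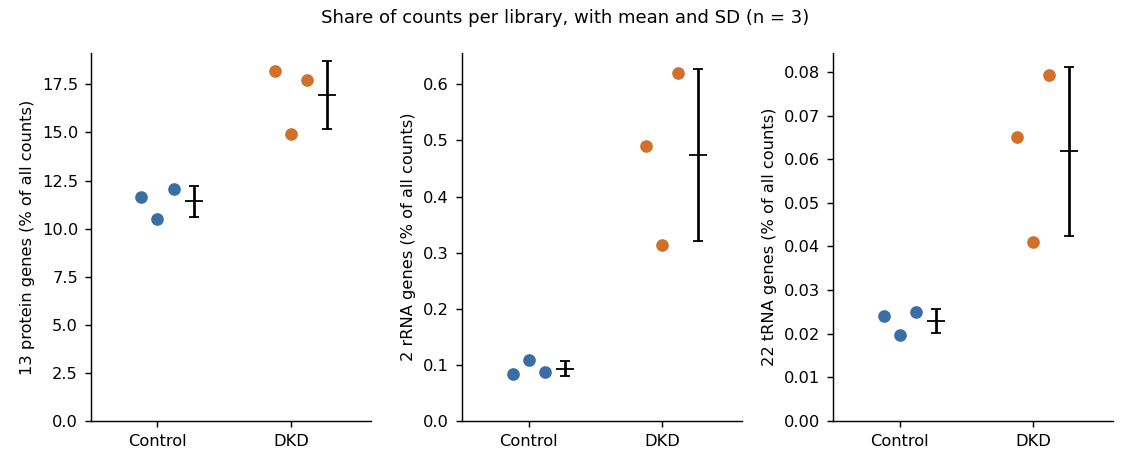
Share of all counts held by the 13 protein genes, the 2 rRNA genes and the 22 tRNA genes (vertical axes, percent, from 0) in each Control and DKD library. Points are libraries and bars are mean and SD; the groups do not overlap in any panel, and the rRNA genes go from 0.0932% ± 0.0133 in Control to 0.474% ± 0.154 in DKD.

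Both rRNAs rose. The 12S rRNA of the small ribosomal subunit, mt-Rnr1 (ENSMUSG00000064337, 955 nt), was measured at 361, 427 and 471 CPM in Control replicates 1 to 3 and at 2151, 1249 and 2324 CPM in DKD replicates 1 to 3. It rose by 2.18 ± 0.27 on the log2 scale, which is 4.55-fold (edgeR adjusted p 0.0263). The 16S rRNA of the large subunit, mt-Rnr2 (ENSMUSG00000064339, 1582 nt), was measured at 382, 542 and 496 CPM in Control and at 3219, 1839 and 4221 CPM in DKD. It rose by 2.71 ± 0.34, which is 6.53-fold (edgeR adjusted p 0.0263). For both rRNAs the lowest DKD library, replicate 2, stood well above the highest Control library. The count of mt-Rnr2 was 105.8%, 127% and 105.3% of that of mt-Rnr1 in Control replicates 1 to 3 and 149.6%, 147% and 182% of it in DKD replicates 1 to 3, so the ratio of the large to the small rRNA was also higher in every DKD library. As levels per length, mt-Rnr1 stood at 440 ± 58.3 CPM per kilobase in Control and mt-Rnr2 at 299 ± 52.3, below all 13 protein genes, the lowest of which was mt-Nd3 at 1084 ± 404. In DKD they stood at 1998 ± 604 and 1955 ± 756 CPM per kilobase, beside 2143 ± 543 for mt-Nd3. A nuclear copy of mt-Nd3, Gm28438, had 96.4% to 97.6% of its count, and with these reads added mt-Nd3 stood at 2138 ± 796 CPM per kilobase in Control and 4220.1 ± 1069 in DKD. These added levels hold reads more than once if reads that match both genes were counted at each.

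Both rRNA calls were lost when any of Control replicate 1, Control replicate 2, DKD replicate 1 or DKD replicate 3 was left out, with fold changes of the same sign. The adjusted p of mt-Rnr1 was then 0.129, 0.114, 0.112 and 0.0854. With those 4 libraries left out in the same order, edgeR called only 1, 13, 4 and 10 genes in all. DESeq2 and limma-voom called both rRNAs with all 6 libraries. Nuclear RNAs that are made by RNA polymerase III and carry no poly(A) tail were listed after the rRNA values had been seen. Their summed level was 1.64, 1.91 and 1.00 CPM in Control and 5.72, 2.55 and 4.51 CPM in DKD. Of these, Rn7sk stood at 0.309 ± 0.0842 CPM (Control) and 0.920 ± 0.295 CPM (DKD). Rn7s1 and Rn7s2 are copies of the 7SL RNA that can share reads. Rn7s1 went from 0.551 ± 0.238 to 1.49 ± 0.586 CPM and Rn7s2 from 0.531 ± 0.215 to 1.52 ± 0.622 CPM. No gene of this list passed the threshold, 3 of 4 tested did not overlap between groups (higher in DKD, against 15.5% of all genes), and 3 of the 8 listed genes had 0 counts in all libraries. Genes of replication-dependent histones, whose transcripts mostly lack such tails, summed to 359 to 413 CPM (Control) and 382 to 426 CPM (DKD). The part of poly(A) selection in the rRNA rise was not tested.

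**Figure D2:**
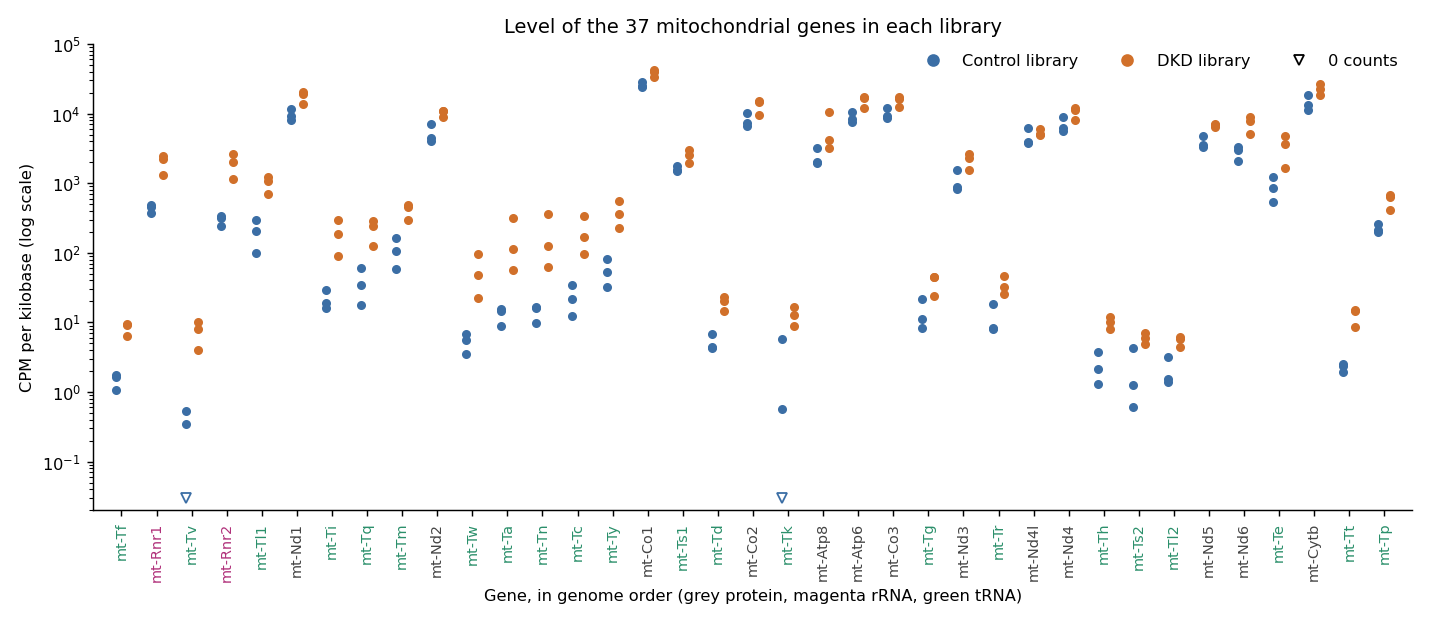
Level of each of the 37 mitochondrial genes as CPM per kilobase (vertical axis, log scale), in genome order along the horizontal axis, with 1 point per library. Both rRNA genes show wider gaps between Control and DKD than the protein genes, while the tRNA genes vary. The log2 fold change of mt-Ts1 (0.65) lies below the median of the protein genes (0.80). The 2 Control values at 0 counts (mt-Tv and mt-Tk) are drawn as open triangles at the bottom.

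Of the 13 protein genes none passed the threshold with edgeR, although all 13 fold changes were above 0. Their median was 0.80, against 0.00 over all genes tested, and 8 of 13 had an unadjusted p under 0.05 (all higher in DKD, against 11.8% of all genes). DESeq2 called 10 of the 13 higher (7.46% of all genes were), and limma-voom called 0 (0.639%). For 7 of the 13 every DKD library lay above every Control library (no overlap, higher in DKD, against 15.5% of all genes). Without Control replicate 3, edgeR called 3 of the 13, in a fit that called 386 of all genes against 228 with all libraries.

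mt-Nd6 (ENSMUSG00000064368, 519 nt), a complex I subunit and the protein gene read from the light strand, was measured at 1544, 1097 and 1733 CPM in Control replicates 1 to 3 and at 4076, 2627 and 4661 CPM in DKD replicates 1 to 3. Its groups did not overlap. The log2 fold change was 1.38 ± 0.29 with an edgeR adjusted p of 0.0640, the smallest of the 13. Among the complex I genes read from the heavy strand, mt-Nd2 was measured at 4563, 4136 and 7258 CPM in Control and at 11309, 9248 and 11359 CPM in DKD (1.00 ± 0.30, edgeR adjusted p 0.119). Its highest Control library was replicate 3, and all DKD libraries lay above it. mt-Nd3 was measured at 309, 283 and 539 CPM in Control and at 899, 535 and 803 CPM in DKD (0.98 ± 0.31, edgeR adjusted p 0.127). Here Control replicate 3 and DKD replicate 2 overlapped by a small margin. mt-Nd5 was measured at 6468, 6026 and 8828 CPM in Control and at 12896, 11701 and 12592 CPM in DKD, with no overlap (0.80 ± 0.26, edgeR adjusted p 0.138). The fold changes of the other 2 large complex I genes were 0.88 ± 0.30 for mt-Nd1 and 0.59 ± 0.31 for mt-Nd4.

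mt-Nd4l, a small complex I subunit whose gene overlaps that of mt-Nd4 by 7 nt, had the lowest fold change of the 13. It was measured at 1123, 1163 and 1858 CPM in Control and at 1787, 1447 and 1507 CPM in DKD, with overlapping groups (0.19 ± 0.24, edgeR adjusted p 0.682). Relative to its neighbour, mt-Nd4l held 13.1%, 15.2% and 15.1% of the count of mt-Nd4 in Control and 10.9%, 12.9% and 9.69% in DKD. The ratio was thus lower in every DKD library. mt-Atp8, a small subunit of ATP synthase whose gene overlaps that of mt-Atp6 by 43 nt, was measured at 397, 412 and 661 CPM in Control and at 851, 651 and 2180 CPM in DKD (1.32 ± 0.47, edgeR adjusted p 0.159). DKD replicate 3 stood apart here: mt-Atp8 held 18.7% of the count of mt-Atp6 in that library and between 7.00% and 9.07% in the others. Without that library the fold change of mt-Atp8 relative to the 13 protein genes together was −0.01, where it was 0.63 ± 0.37 with it. Counts of overlapping neighbours may be split between them.

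The remaining protein genes encode the core of complexes III and IV and subunit a of ATP synthase. The cytochrome c oxidase subunits had fold changes of 0.57 ± 0.35 (mt-Co1), 0.72 ± 0.30 (mt-Co2) and 0.63 ± 0.27 (mt-Co3). The fold change was 0.64 ± 0.34 for cytochrome b (mt-Cytb) and 0.80 ± 0.28 for mt-Atp6. mt-Co1 was the most abundant transcript of the genome, going from 39879 ± 4023 to 59303 ± 7526 CPM. As levels per length in Control, it was followed by mt-Cytb at 14314 ± 3883 CPM per kilobase after 25812 ± 2604 for mt-Co1. mt-Co3, mt-Nd1, mt-Atp6, mt-Co2 and mt-Nd4 came next, between 6906 and 9881, with SDs that overlapped between neighbours in that order. The lowest 3 were mt-Nd6 at 2809 ± 629, mt-Atp8 at 2402 ± 729 and mt-Nd3 at 1084 ± 404.

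Nuclear copies of mitochondrial DNA limit these levels. There were 7 nuclear genes with at least 50% of their 31-base words in mitochondrial transcripts, and their share of all counts was 2.76% ± 0.191 (Control) and 4.13% ± 0.629 (DKD). Over the 6 libraries, Gm28437 had at least 98.6% of the count of mt-Co3, Gm10925 had 100.3% to 102% of that of mt-Atp6, and Gm28661 had 94.3% to 99.3% of that of mt-Co2. These 3 are the copies with the highest counts. Reads from a gene and its copy could not be told apart in the counts, so the levels of these protein genes are uncertain. How reads that match both were counted is not given in the sources used here. If they were split between gene and copy, the order of levels turns when the copies are added. If they were counted at both, the added levels hold the same reads more than once. With the copies added, levels computed after the values were seen, mt-Co3 at 19715 ± 3563, mt-Atp6 at 17746 ± 3365 and mt-Co2 at 15742 ± 3474 CPM per kilobase in Control came before mt-Cytb, with SDs that overlapped between neighbours in that order, and mt-Co1 stayed first at 28275 ± 2790.3. With each copy added to its nearest gene, edgeR still called none of the 13 protein genes, and none of the 6 protein genes without such a copy passed, a count added after the values were seen. The rRNAs share few words with nuclear transcripts (none for mt-Rnr1 and 2.71% for mt-Rnr2).

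Among the tRNAs 3 of 22 rose in edgeR, where 0.725% of all genes did, and none fell. All 22 fold changes were above 0, with a median of 2.39, and 20 had an unadjusted p under 0.05 (higher in DKD, against 11.8% of all genes). Each of the 22 was higher in every DKD library than in every Control library, against 15.5% of all genes. Without mt-Tf and mt-Tv, 3 of 20 rose, 18 had an unadjusted p under 0.05, 20 had no overlap, and the median was 2.19. These 20 still include mt-Tk, mt-Ts2, mt-Tl2 and mt-Th, which also passed the filter only through DKD. Nothing is supported with these counts over the tRNAs. The tRNA genes are 59 to 75 nt long, shorter than the sequenced inserts of 300 bases on average, so their counts rest on fragments that also cover neighbouring sequence or on trimmed reads, and the counts do not tell mature tRNA from precursor.

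The tRNA genes that rose were mt-Ti (isoleucine), mt-Ty (tyrosine) and mt-Tp (proline). mt-Ti (ENSMUSG00000064342) was measured at 1.30, 1.12 and 1.98 CPM in Control replicates 1 to 3 and at 12.7, 6.14 and 20.3 CPM in DKD replicates 1 to 3 (3.15 ± 0.47, edgeR adjusted p 0.0370). mt-Ty (ENSMUSG00000064350) was measured at 3.56, 2.19 and 5.54 CPM in Control and at 24.3, 15.4 and 36.7 CPM in DKD (2.76 ± 0.43, edgeR adjusted p 0.0396). mt-Tp (ENSMUSG00000064372) was measured at 14.1, 13.2 and 17.2 CPM in Control and at 42.8, 27.7 and 45.9 CPM in DKD (1.39 ± 0.21, edgeR adjusted p 0.0391). In all of them DKD replicate 3 was highest and DKD replicate 2 lowest of the DKD libraries. A further 14 tRNAs had an edgeR adjusted p between 0.05 and 0.1, so the line between called and uncalled tRNAs ran through similar values. DESeq2 called 19 of the 22 and limma-voom 2, all higher, against 7.46% and 0.639% of all genes. The 22 include the tRNAs that passed the filter only through DKD, so nothing is supported with these counts. Without Control replicate 1, Control replicate 2, DKD replicate 1 or DKD replicate 3 no tRNA passed, and without Control replicate 3 or DKD replicate 2 there were 7 and 8, in fits that called 386 and 298 of all genes.

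mt-Ti is shown with mt-Tq (glutamine), its neighbour on the other strand, because the genes end in the same 3 base pairs, in capitals here, 5′ to 3′, from the GENCODE M21 transcripts, as DNA letters.
mt-Ti: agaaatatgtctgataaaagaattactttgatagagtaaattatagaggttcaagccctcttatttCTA
mt-Tq: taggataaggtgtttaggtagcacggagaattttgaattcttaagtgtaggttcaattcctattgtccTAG
The count of mt-Ti was 52.7%, 88.3% and 46.4% of that of mt-Tq in Control and 73.3%, 68.3% and 101% in DKD, with overlapping groups. mt-Tq had a log2 fold change of 2.53 ± 0.49 (edgeR adjusted p 0.0573). Whether the counting used the strand is not given in the sources used here, and without strand the reads of such overlapping ends cannot be told apart.

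The most abundant tRNA gene in Control was mt-Ts1 (serine), read from the light strand, whose last 3 bases, in capitals, pair with the end of mt-Co1 on the other strand.
mt-Ts1: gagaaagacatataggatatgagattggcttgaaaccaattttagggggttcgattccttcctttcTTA
It was measured at 104, 106 and 121 CPM in Control and at 206, 136 and 177 CPM in DKD. Its log2 fold change of 0.65 ± 0.17 (edgeR adjusted p 0.0928) was the lowest of the 22 tRNAs and close to that of mt-Co1. In DKD the highest mean was that of mt-Te instead, although mt-Ts1 was the higher of the pair in DKD replicate 2. mt-Te (glutamate), which lies beside mt-Nd6 and is read from the same strand, was measured at 59.7, 36.6 and 83.4 CPM in Control and at 256, 114 and 325 CPM in DKD (1.95 ± 0.43, edgeR adjusted p 0.0702). Its count was 3.87%, 3.34% and 4.81% of that of mt-Nd6 in Control and 6.28%, 4.33% and 6.97% in DKD, with overlapping groups.

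The tRNAs next to the rRNAs are shown because the rRNAs rose beside them. mt-Tv (valine) fills the space between mt-Rnr1 and mt-Rnr2 with no base to spare, and mt-Tl1 (leucine) does so between mt-Rnr2 and mt-Nd1. In mammals the termination factor MTERF1 binds within the gene for this leucine tRNA. The core of its known site, TGGCAGAGC, was searched on both strands of the 37 genes and was found in mt-Tl1 alone (2.7% of the genes), at bases 8 to 16, in capitals.
mt-Tv: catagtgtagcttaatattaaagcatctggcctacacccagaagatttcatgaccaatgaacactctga
mt-Tl1: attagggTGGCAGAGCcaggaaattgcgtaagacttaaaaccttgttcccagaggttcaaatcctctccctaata
mt-Tl1 was measured at 15.5, 7.34 and 22.1 CPM in Control and at 80.8, 51.8 and 92.0 CPM in DKD (2.32 ± 0.41, edgeR adjusted p 0.0511). Per count of mt-Nd1, which follows it, mt-Tl1 stood at 0.173%, 0.0956% and 0.201% in Control and at 0.413%, 0.389% and 0.510% in DKD, without overlap. mt-Tv had 2, 3 and 0 counts in Control and 37, 20 and 50 in DKD. Summed over the groups this is 5 against 107 counts, a ratio of 22.4 relative to the summed library totals with an exact 95% interval of 9.31 to 70.4 that covers counting error only. It had the largest fitted fold change of the 37 (4.52 ± 0.90, edgeR adjusted p 0.0580). As mt-Tv passed the filter only through DKD, nothing is supported with this ratio, its interval or this fold change.

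Large fold changes also lay in the cluster between mt-Nd2 and mt-Co1. It holds mt-Tw (tryptophan), read from the heavy strand, and mt-Ta (alanine), mt-Tn (asparagine), mt-Tc (cysteine) and mt-Ty, read from the light strand. mt-Tn was measured at 1.14, 0.704 and 1.18 CPM in Control and at 8.80, 4.43 and 25.5 CPM in DKD (3.68 ± 0.66, edgeR adjusted p 0.0538). mt-Ta was measured at 1.08, 0.605 and 1.018 CPM in Control and at 7.83, 3.95 and 21.8 CPM in DKD (3.64 ± 0.65, edgeR adjusted p 0.0542). DKD replicate 3 was the highest library for all 5 genes of the cluster. The fold changes were 3.40 ± 0.60 for mt-Tw and 3.14 ± 0.56 for mt-Tc.

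Of the remaining tRNAs, mt-Tm (methionine) went from 7.48 ± 3.63 to 28.4 ± 7.18 CPM. mt-Tf, mt-Td, mt-Tk, mt-Tg, mt-Tr, mt-Th, mt-Ts2, mt-Tl2 and mt-Tt had mean levels of 0.101 to 0.938 CPM (Control) and 0.35 to 2.57 CPM (DKD). Their fold changes ran from 1.43 ± 0.55 for mt-Tl2 to 2.60 ± 1.19 for mt-Tk, which had 0, 3 and 28 counts in Control and 56, 41 and 76 in DKD. By strand, the 14 tRNAs read from the heavy strand had a median fold change of 2.19 and the 8 read from the light strand one of 2.65, and the ranges overlapped. The 14 include all tRNAs that passed the filter only through DKD, so nothing is supported with these medians.

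**Figure D3:**
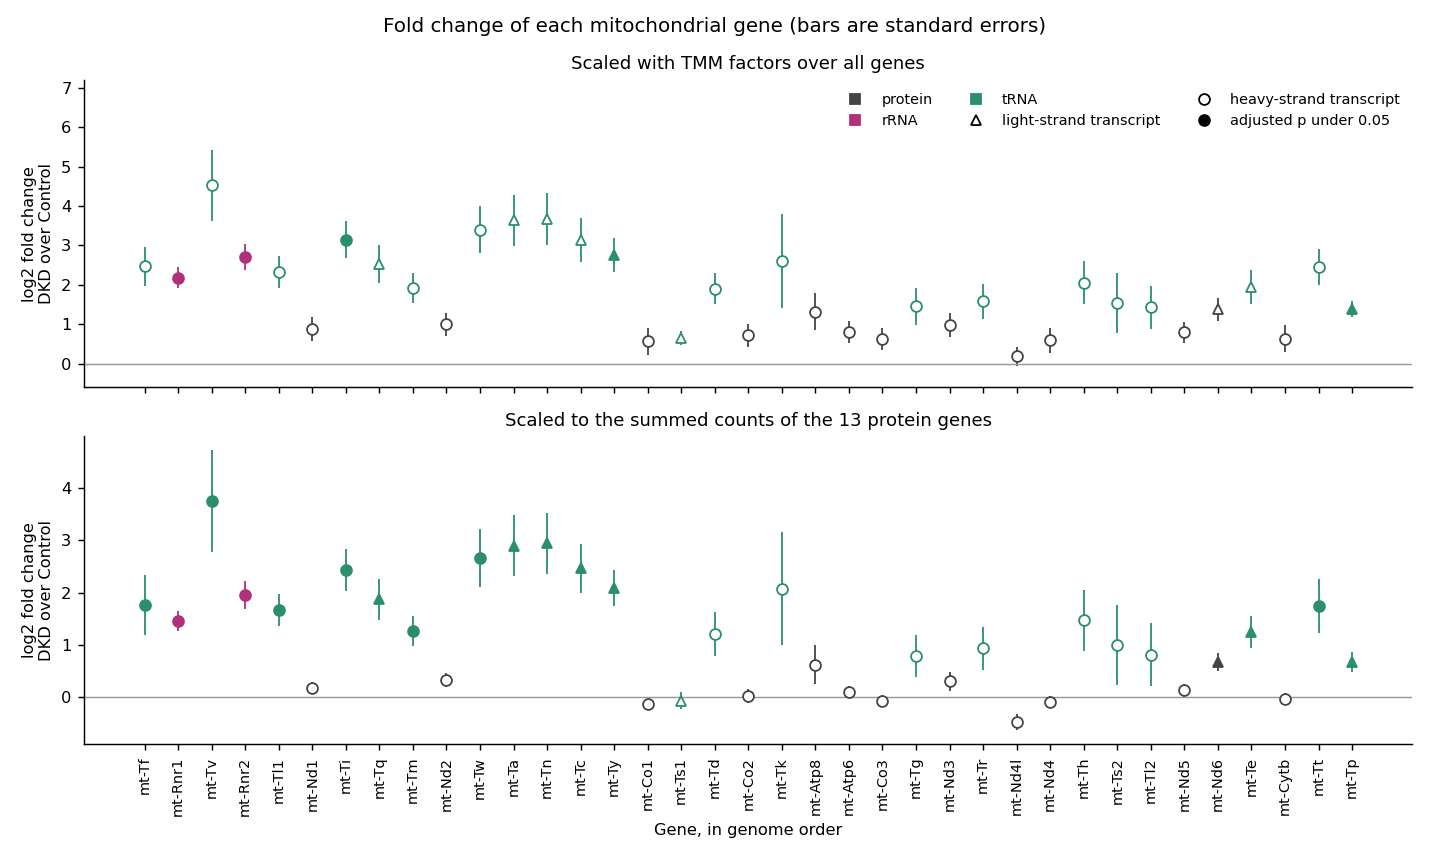
Log2 fold change of each mitochondrial gene, DKD over Control, in genome order, with standard errors; the upper panel scales libraries with TMM factors and the lower panel with the summed counts of the 13 protein genes. Filled markers have an adjusted p under 0.05; 2 rRNAs and 3 tRNAs are filled in the upper panel, and 2 rRNAs, 14 tRNAs and mt-Nd6 in the lower one.

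To ask which members stood apart from the rest of the genome, libraries were scaled to the summed counts of the 13 protein genes, and all genes were tested again. On this scale both rRNAs and 14 of 22 tRNAs rose, none of the 37 fell, and mt-Nd6 was the single protein gene that rose, while 0.857% of all genes tested rose and 32.1% fell. mt-Rnr1 was higher by 1.45 ± 0.20 and mt-Rnr2 by 1.96 ± 0.27 than the protein genes together (edgeR adjusted p 0.0121 and 0.0127). mt-Nd6 was higher by 0.67 ± 0.17 (edgeR adjusted p 0.0255). The tRNAs that rose were mt-Tf, mt-Tv, mt-Tl1, mt-Ti, mt-Tq, mt-Tm, mt-Tw, mt-Ta, mt-Tn, mt-Tc, mt-Ty, mt-Te, mt-Tt and mt-Tp. mt-Tf and mt-Tv are among them but were kept by the filter through DKD alone. Without these, 12 of 20 tRNAs rose on this scale, a count added after the values were seen. They were 5 of the 12 read from the heavy strand and 7 of the 8 read from the light strand. The 12 of the heavy strand still include mt-Tk, mt-Ts2, mt-Tl2 and mt-Th, kept by the filter in the same way, none of which rose. The 8 of the light strand include no such tRNA, so nothing is supported with this split by strand. mt-Ts1 was at −0.06 ± 0.17 (edgeR adjusted p 0.789), and mt-Nd4l at −0.47 ± 0.16 (edgeR adjusted p 0.0504). The other 11 protein genes lay between −0.13 and 0.63. Without Control replicate 1, Control replicate 2, DKD replicate 1 or DKD replicate 3, neither mt-Nd6 nor any tRNA passed. mt-Rnr1 did not pass without Control replicate 1, DKD replicate 1 or DKD replicate 3, and mt-Rnr2 did not without DKD replicate 1. In those 4 fits between 4 and 15 of all genes rose.

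Ratios within a library do not depend on scaling between libraries. There were 7.18, 10.3 and 7.25 rRNA counts per 1000 counts of the 13 protein genes in Control replicates 1 to 3 and 26.9, 20.97 and 34.9 in DKD replicates 1 to 3. There were 2.07, 1.87 and 2.07 tRNA counts in Control and 3.58, 2.75 and 4.47 in DKD. The tRNA sum rests largely on mt-Ts1 and mt-Te. Their mean levels were 110 and 59.9 CPM of 222 CPM for all 22 tRNAs in Control, and 173 and 232 of 652 CPM in DKD. There were 15.2, 11.8 and 13.2 counts of mt-Nd6 per 1000 of the other 12 protein genes in Control and 20.9, 18.2 and 25.5 in DKD. All DKD libraries lay above all Control libraries in each ratio. The log2 ratios differed by 1.73 for rRNA, 0.82 for tRNA and 0.68 for mt-Nd6, each with an exact permutation p = 0.1 (two-sided), the smallest that the design allows.

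**Figure D4:**
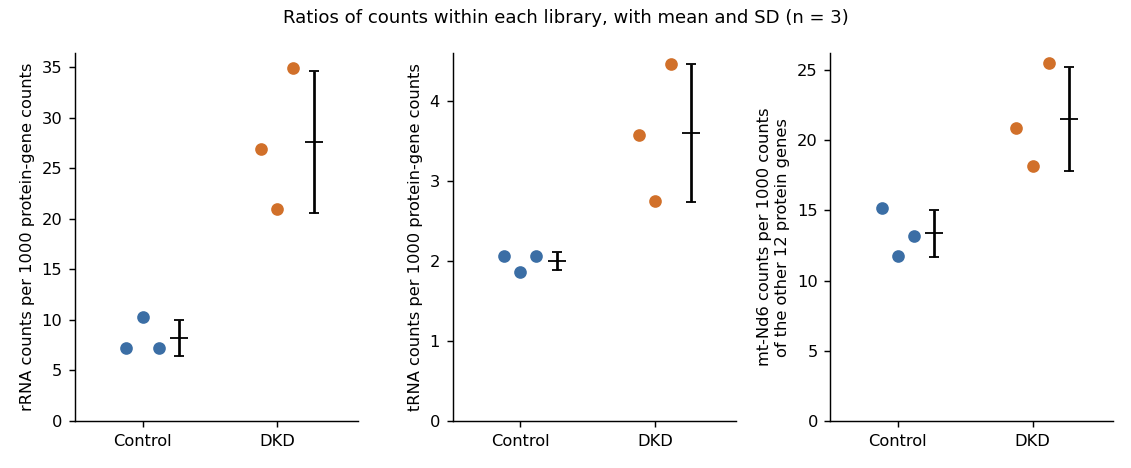
Counts of rRNA, tRNA and mt-Nd6 per 1000 counts of mitochondrial protein genes (of the other 12 for mt-Nd6) in each library, with axes from 0, and mean and SD beside the points. The 3 DKD libraries sit above the 3 Control libraries in every panel, with rRNA at 27.6 ± 7.01 against 8.24 ± 1.78.

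Among the 13 protein genes, mt-Co1 held 36.5% ± 2.92 of their counts in Control and 33.4% ± 1.26 in DKD, and mt-Cytb 14.7% ± 1.24 and 14.3% ± 0.731, with overlapping groups. mt-Nd1 held 8.34% ± 0.272 and 9.50% ± 0.396, and mt-Nd2 4.75% ± 0.599 and 6.00% ± 0.308, and both were higher in every DKD library. mt-Nd6 and mt-Atp6 were also higher in every DKD library (1.32% ± 0.165 and 2.11% ± 0.356 for mt-Nd6). mt-Nd4l (1.24% ± 0.153 and 0.894% ± 0.0888) and mt-Co3 (7.02% ± 0.0872 and 6.73% ± 0.0919) were lower in every DKD library.

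Nuclear genes that replicate and transcribe the mitochondrial genome, process its RNA, charge its tRNAs or regulate mitochondrial biogenesis were read as a list. Of 93 such genes none rose and 1 fell, with a median fold change of −0.06 against 0.00 over all genes. With an unadjusted p below 0.05, 2 of them were higher and 9 lower, where 11.8% and 10.9% of all genes were, and DESeq2 called 7 (13.7% of all genes in either direction). The gene that fell was Gabpa, which encodes the DNA-binding subunit of the transcription factor GABP (NRF-2), an activator of genes for mitochondrial proteins. It was measured at 46.4, 43.1 and 51.9 CPM in Control and at 29.5, 31.4 and 27.6 CPM in DKD, without overlap (−0.68 ± 0.11, edgeR adjusted p 0.0472). Gabpa did not pass with RLE factors, with factors from nuclear genes, without the filter, with limma-voom or with any single library left out (edgeR adjusted p from 0.0505 to 0.1605 for the latter). It did not pass with a replicate block either (edgeR adjusted p 0.1809).

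Among the genes for transcription, Tfb2m, a factor that opens mitochondrial promoters, was at −0.37 ± 0.15 and Mterf2 at −0.54 ± 0.21 (edgeR adjusted p 0.210 and 0.196). In the processing list the smallest p-values belonged to Fastkd2, an RNA-binding protein needed for 16S rRNA assembly, at −0.68 ± 0.16, and Angel2 at −0.50 ± 0.14 (edgeR adjusted p 0.0769 and 0.112). Slirp, which stabilises mitochondrial mRNAs with its partner Lrpprc, was at 0.62 ± 0.26, and the RNA-degrading enzyme Pnpt1 at −0.21 ± 0.13 (edgeR adjusted p 0.208 and 0.391). Top1mt, the mitochondrial topoisomerase, was at 0.41 ± 0.15, and Ssbp1, which coats single-stranded mitochondrial DNA, at 0.28 ± 0.12. For tRNA modification Osgepl1 was at −0.52 ± 0.14 and Nsun3, which methylates the methionine tRNA, at −0.64 ± 0.19 (edgeR adjusted p 0.101 and 0.115). Of the 23 genes that charge mitochondrial tRNAs none had an unadjusted p under 0.05, DKD over Control, and the smallest p-values were those of Aars2 (0.31 ± 0.14) and Rars2 (−0.51 ± 0.24).

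The nuclear-encoded subunits of oxidative phosphorylation, by contrast, were mostly above 0. Of 71 subunits, 69 had a fold change above 0, with a median of 0.54, and 53 had an unadjusted p under 0.05, all higher (11.8% of all genes were). The 1 subunit that rose (0.725% of all genes did) was Ndufb8 of complex I, from 137 ± 10.95 to 244 ± 25.2 CPM (0.84 ± 0.13, edgeR adjusted p 0.0428). Ndufb8 did not pass without the filter, or without Control replicate 1, Control replicate 2, DKD replicate 1 or DKD replicate 3 (edgeR adjusted p from 0.0738 to 0.153). It did not pass with the replicate block either (edgeR adjusted p 0.1675). Their share of all counts was 1.49% ± 0.0644 (Control) and 1.77% ± 0.0821 (DKD). Per 1000 counts of the 71 nuclear subunits there were 7942, 7294 and 7725 counts of the 13 mitochondrial protein genes in Control and 9780, 8769 and 10237 in DKD. The ratio was higher in every DKD library, and the log2 ratio differed by 0.32 (exact permutation p = 0.1, two-sided, the smallest possible).

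**Figure D5:**
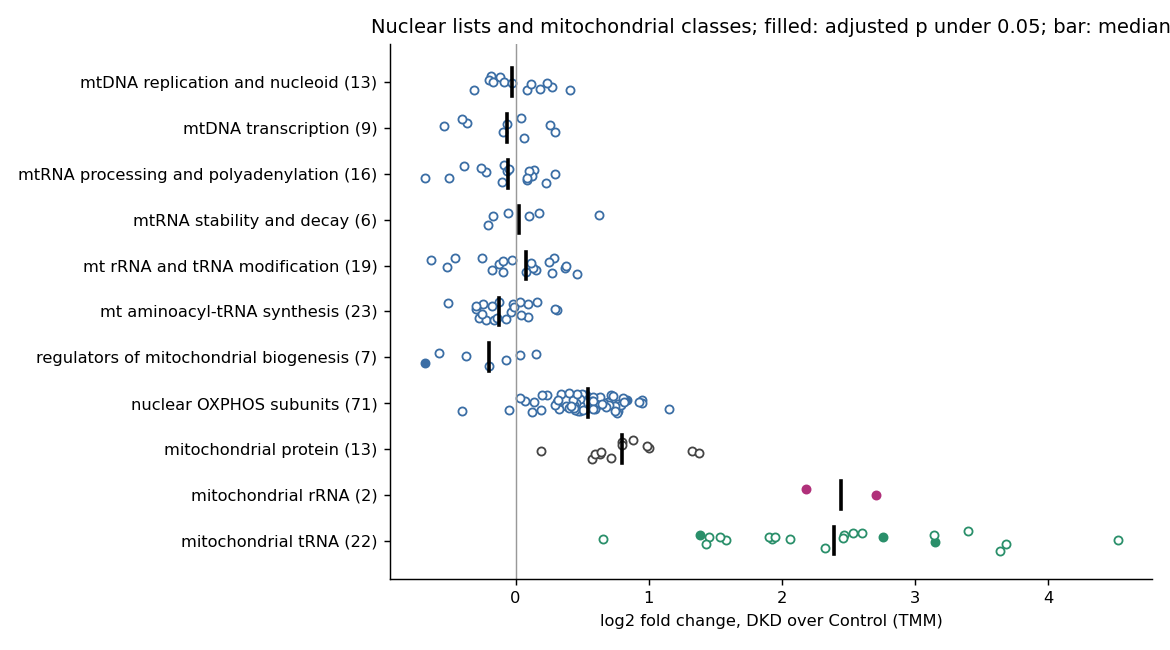
Log2 fold change, DKD over Control, of single genes (points) in 7 lists of nuclear genes for mitochondrial DNA expression, in the nuclear OXPHOS subunits and in the 3 mitochondrial classes, with the number of genes in parentheses and the median as a bar. The medians of the 7 lists lie between −0.20 and 0.08, those of the nuclear subunits and mitochondrial protein genes at 0.54 and 0.80, and those of rRNA and tRNA at 2.45 and 2.39.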

How the data were processed

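RNA with poly(A) tails, labelled as from glomeruli, was sequenced as dUTP-marked libraries with reads of 150 bases from both ends, per the labels' protocols. The submitters' processing notes list fastp, HISAT2, StringTie, edgeR and the build GRCm39. No source used here gives their versions, the annotation, whether counting used the strand or how reads that match several genes were counted. The values deposited by the authors are counts for each Ensembl gene and were used here as read counts.

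Gene names, lengths, order and sequences were read from GENCODE M21, which is on GRCm38; no coordinate is given for that reason. Of the identifiers 55141 matched and 260 did not. Genes passing filterByExpr (minimum count 10) were scaled by TMM and tested in edgeR 4.0.16 (R 4.3.3), Control against DKD without covariates. A second fit took the summed counts of the 13 protein genes as library size. Shares and ratios had exact permutation tests (scipy 1.17.1). Alternatives were other scalings and filters, DESeq2 1.42.0, limma-voom (limma 3.58.1), robust dispersion, a replicate block, added nuclear copies and leaving out each library. The test was tried on simulated data.

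Members and lists were chosen with earlier results of these data known. Values per library are given for the rRNAs, the 4 protein genes with the smallest p, mt-Nd4l, mt-Atp8, tRNAs past the threshold, the 4 most abundant tRNAs and the 2 with the largest fold; nuclear genes are up to 4 called per list, otherwise the 2 with the smallest p. The values of mt-Ta, mt-Tw, mt-Tc, mt-Tq, mt-Tm, mt-Tk and mt-Tl2, and the lists of RNA polymerase III RNAs and histone genes, were chosen after values were seen.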

Additional observations from a re-analysis of the deposited data

How the results depend on the processing

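Fold changes of the mitochondrial genes stayed above 0 in each fit on nuclear or total scaling that kept the gene, while calls depended on the setting. Library totals, which shifted the median of all genes by −0.13, called 275 of all genes. Among them were 2 protein genes, 7 tRNAs and 5 nuclear OXPHOS subunits. Upper quartile factors called 240 of all genes, with 3 subunits among them. Without a filter 0 tRNAs and 56 of all genes were called, and with at least 1 CPM in 3 libraries 11 of 15 tRNAs and 516 of all genes. DESeq2 called 10 protein genes, 19 tRNAs, 2483 of all genes, 7 expression genes and 35 subunits. RLE factors, scaling on nuclear genes and limma-voom called 0 expression genes. Same-numbered libraries of the 2 groups correlated at −0.27, 0.10 and −0.26 in their deviations from the group means, and other pairs between −0.29 and 0.36. As deviations within a group of 3 sum to 0, these values cannot tell whether the numbers mark a shared batch. The labels do not say what the numbers mark. The replicate block called 0 rRNAs, 0 tRNAs, 0 of all genes, 0 expression genes and 0 subunits. On the protein scale it called 11 tRNAs, where 106 of all 19717 genes rose and 6560 fell. Leaving out 1 library gave 0 to 3 protein genes, 0 to 2 rRNAs, 0 to 8 tRNAs, 1 to 386 of all genes, 0 expression genes and 0 to 9 subunits. On the protein scale it gave 0 to 2 protein genes, 0 to 2 rRNAs and 0 to 17 tRNAs. In those fits on the protein scale 4 to 218 of all genes rose and 49 to 10055 fell. Counts over all 22 tRNAs include those that passed the filter only through DKD, so nothing is supported with them. Relative to the protein total, signs turned for mt-Ts1 (0.0161), mt-Co3 (0.0132) and mt-Cytb (0.032) when scaled on 3 protein genes. Leaving out 1 library moved mt-Ts1 between −0.134 and 0.0236, mt-Cytb between −0.0968 and 0.0253, mt-Co2 between −0.0343 and 0.104 and mt-Atp8 between −0.0148 and 0.872. The cause was not tested. Depth limits tRNAs with few counts, such as mt-Tv and mt-Tk.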
